A study of Homo sapiens with 8 samples.

Results

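EFS (embryonal Fyn-associated substrate) belongs to the CAS family of adaptor proteins, whose other members are BCAR1 (p130Cas), NEDD9 (HEF1) and CASS4. The family was read from every non-control probe whose RefSeq transcript maps to one of these symbols, which gave 7 probes for 4 genes out of 34127 probes and 19483 named genes on the array. EFS has 1 probe and each of the other members has 2. The family was chosen by the signals of EFS on these same arrays, and the levels of the family are therefore given as a description with no test.

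Cy-3 labeled cRNA from 8 stable lines of HEK293T, a human embryonic kidney cell line, was hybridized to 8 single-color Agilent arrays. Every line carried a pcDNA6/myc-His plasmid under blasticidin selection and grew from 1 picked colony, and each of the 4 constructs was represented by 2 clones. The constructs were the empty vector (#1 and #2), the wild-type TET1 catalytic domain alone (TET1-CDwt, #2 and #5), that domain joined to the methyl-CpG-binding domain of MBD2 (MBD-TET1-CDwt, #3 and #10), and the fusion with an inactive catalytic domain (MBD-TET1-CDmut, #9 and #10). TET1 oxidizes 5-methylcytosine, and the study asked which genes rise when this activity is brought to methylated promoters.

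CAS proteins have no enzymatic activity of their own. They consist of an SH3 domain, a long substrate domain with repeated tyrosine motifs, a serine-rich region and a C-terminal domain. The SH3 domain binds focal adhesion kinases and phosphatases, Src-family kinases phosphorylate the substrate domain, the phosphorylated motifs recruit the adaptors CRK and NCK, and exchange factors then activate small GTPases that drive membrane ruffling and migration. BCAR1 is widely expressed and acts at focal adhesions, NEDD9 also binds mitotic and ciliary proteins, EFS was found as a partner of the kinase FYN and is known for a role in T cells, and CASS4 is the least studied member.

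The promoter of EFS is shown because the MBD binds methylated CpG, the substrate of TET1. RefSeq sequences (GRCh38.p14) gave 1 window for EFS, 5 for BCAR1 and 3 for NEDD9, each from 250 bases before to 50 after an annotated start. The 250 bases before the start are printed 5′ to 3′ on the minus strand, with each CpG in capitals, for EFS, for the BCAR1 window with most CpG and for the NEDD9 window with most CpG. They lie at chr14:23365173-23365422, chr16:75266008-75266257 and chr6:11232669-11232918.
EFS: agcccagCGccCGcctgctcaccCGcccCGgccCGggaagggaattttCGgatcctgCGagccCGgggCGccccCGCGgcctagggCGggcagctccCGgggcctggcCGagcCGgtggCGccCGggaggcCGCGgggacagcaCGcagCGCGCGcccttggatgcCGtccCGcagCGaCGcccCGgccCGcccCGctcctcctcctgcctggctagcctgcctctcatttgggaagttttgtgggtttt
BCAR1: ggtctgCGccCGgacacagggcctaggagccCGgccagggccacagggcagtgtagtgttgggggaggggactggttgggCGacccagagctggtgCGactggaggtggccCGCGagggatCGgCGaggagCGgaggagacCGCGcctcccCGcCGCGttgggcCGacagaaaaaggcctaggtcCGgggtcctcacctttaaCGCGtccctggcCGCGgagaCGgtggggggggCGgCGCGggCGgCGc
NEDD9: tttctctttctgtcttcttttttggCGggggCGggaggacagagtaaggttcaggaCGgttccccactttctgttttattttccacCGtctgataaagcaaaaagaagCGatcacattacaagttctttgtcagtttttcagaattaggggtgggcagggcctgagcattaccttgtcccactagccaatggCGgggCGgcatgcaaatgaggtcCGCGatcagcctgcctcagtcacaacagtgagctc

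The full EFS window of 300 bases held 33 CpG at a GC content of 73.7%, and its ratio of observed to expected CpG was 0.82. Across 35116 RefSeq windows the median was 14 CpG, the upper quartile was 28, and 17.2% of windows held at least as many as EFS. The 5 windows of BCAR1 held 6, 8, 9, 14 and 37 CpG, and the 3 windows of NEDD9 held 6, 7 and 13. The CpG density of EFS was thus above that of every NEDD9 window and below that of 1 BCAR1 window. The GC box, the letters GGGCGG on either strand, which contain a CpG themselves, occurred 3 times in the EFS window, all within the printed bases. It occurred at least once in 45.0% of all windows and 3 times or more in 15.8%. Methylation of these windows was not measured on the arrays.

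**Figure D1:**
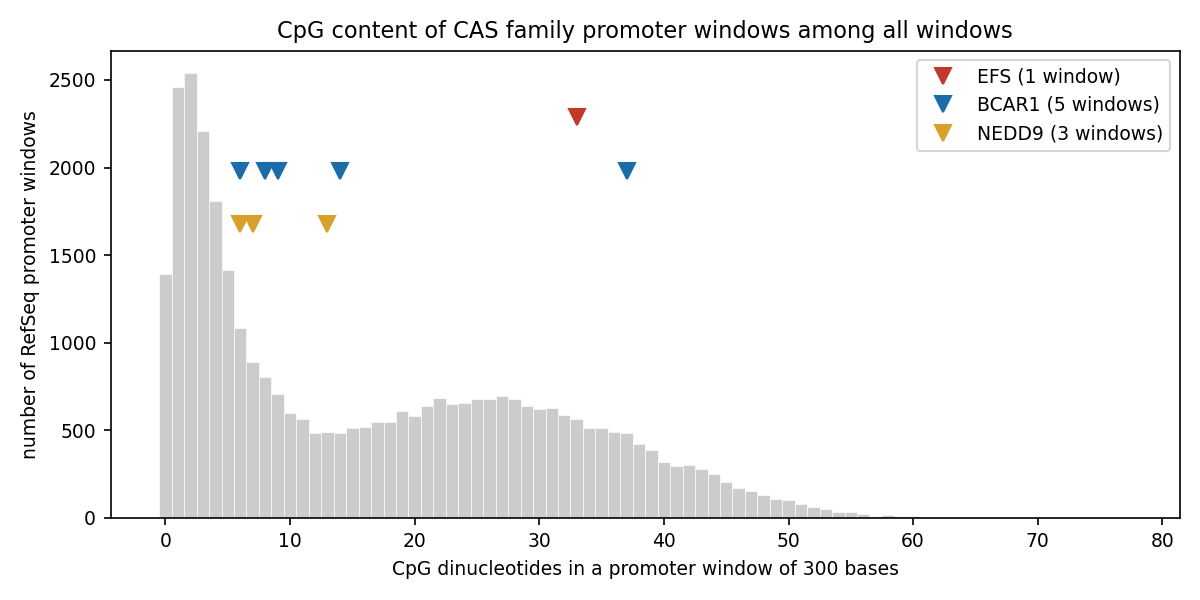
Number of RefSeq promoter windows (y axis) by the number of CpG dinucleotides in a window of 300 bases (x axis), with the windows of EFS, BCAR1 and NEDD9 marked by triangles whose height carries no value. EFS lies at 33 CpG, past the upper quartile of 28, and the NEDD9 windows lie at 6, 7 and 13.

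On the arrays of empty vector and TET1-CDwt, between 65.8% and 68.2% of probes were well above background. On those of the MBD fusions, which lay on another slide, the share was lower, between 63.2% and 64.6%. The 75th percentile of the signal lay between 328 and 527 over all 8 arrays. The renal genes LHX1 and SALL1, 1 of 2 probes of the renal gene PAX2, and the neuronal filament genes INA, NEFL and NEFM, which HEK293 cells are known to express, were well above background on all 8 arrays. PAX8 was above it on 3. CD3E (T cells), DCN (fibroblasts) and PECAM1 (endothelium) were not well above background on any array, whereas CD14, COL1A1, CDH5 and 1 of 4 PTPRC probes were above it on all 8. The probes of TET1 and MBD2 did not separate the lines with a transgene from those without, and whether they lie inside the cloned domains is not given in the sources used here, so they did not check the labels.

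EFS mRNA was detected in both clones of MBD-TET1-CDwt and on none of the other 6 arrays. The processed intensity, with the error that the scanner software assigns to the spot, was 65.8 ± 6.81 in MBD-TET1-CDwt #3 and 175 ± 17.6 in #10. In empty vector #1 it was 1.46 ± 1.46 and in #2 1.71 ± 1.60, values that their own errors do not separate from 0. TET1-CDwt #2 gave 2.13 ± 1.93 and #5 4.68 ± 1.81, and MBD-TET1-CDmut #9 gave 2.18 ± 1.66 and #10 5.24 ± 2.001. These 6 signals were not well above background.

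Values were then expressed as log2 of the signal minus the log2 of the 75th percentile of its array. On this scale EFS averaged -1.66 ± 1.06 (SD, n = 2) in MBD-TET1-CDwt, from -2.41 in #3 to -0.91 in #10. It averaged -6.73 ± 0.74 (n = 2) in MBD-TET1-CDmut, -7.28 ± 0.94 (n = 2) in TET1-CDwt and -7.97 ± 0.08 (n = 2) in empty vector. MBD-TET1-CDwt stood above the other groups in both clones. The means of those 3 groups come from dim signals and were not ranked.

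The lowest signal that counted as well above background ran from -6.01 to -5.82 on the arrays of empty vector and TET1-CDwt. On those of the MBD fusions it ran from -5.56 to -5.51. A dim EFS signal was set to this floor of its array for a fold. With MBD-TET1-CDwt, EFS was then at least 19.1-fold above empty vector, at least 19.1-fold above TET1-CDwt and at least 14.6-fold above MBD-TET1-CDmut. All the dim EFS signals lay below their floors, so these bounds differ only through the floors and do not rank the groups. Without the floor the log2 differences, which rest on dim signals and are no exact sizes, were 6.31, 5.62 and 5.07 in the same order. The dimmer MBD-TET1-CDwt clone exceeded the brightest MBD-TET1-CDmut clone by 3.80 on the log2 scale. Of 34094 probes, 0.197% exceeded empty vector by 5-fold or more in MBD-TET1-CDwt under this rule, and against MBD-TET1-CDmut 0.15% did. The differences without the floor were also ranked, over the 22530 probes that both arrays of some group showed well above background. EFS ranked 7th against empty vector and 9th against MBD-TET1-CDmut, ranks that rest on dim signals in the lower group. These ranks describe the values for which EFS was chosen.

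In contrast, no fold is given for EFS between the groups without signal. On the log2 scale TET1-CDwt differed from empty vector by 0.69 and MBD-TET1-CDmut by 1.24, from arrays that were all not well above background. With dim signals at the floor these differences became 0.0011 and 0.38. Every one of these signals lay below its floor, so both values are differences between floors and hold no EFS signal. The array is read over all cells of a clone, so more cells with EFS mRNA and more EFS mRNA per cell cannot be told apart.

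The EFS difference depended in size on the background correction and on the clone. With normexp, which models the background and adds an offset of 50, the difference of MBD-TET1-CDwt was 1.73 from empty vector, 1.49 from MBD-TET1-CDmut and 1.86 from TET1-CDwt, and the small difference between TET1-CDwt and empty vector changed sign to -0.14. Without MBD-TET1-CDwt #10 the difference from empty vector was 5.56, and without #3 it was 7.07.

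The sister clones of MBD-TET1-CDwt differed in EFS by 1.51 on the log2 scale, or 2.66-fold in unscaled intensity, with #10 the brighter. Over the 22530 probes the difference of #10 from #3 lay between -0.95 and 1.20 once the extreme 5% at each end were set aside, a range that EFS exceeded. Among the markers, the filament gene NEFM was 0.32 in #3 and 2.51 in #10, and the part of this difference in the EFS signal was not tested.

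Slide and construct ran together, because slide 1 held the arrays of empty vector and TET1-CDwt, and slide 2 those of the MBD fusions. For the 9137 probes that no array showed well above background, signals of MBD-TET1-CDwt exceeded those of empty vector by a median of 0.37, and those of MBD-TET1-CDmut did so by 0.35. The part of the slide in the EFS difference from empty vector cannot be told apart from that of the construct. Within slide 2, the median of those probes differed by 0.03 between the MBD fusions, and the EFS bound was the 14.6-fold given above.

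BCAR1, the widely expressed member, was detected in all lines with little difference between the constructs. The NM_001170714 probe gave intensities between 1244 and 2475. Its log2 values were 2.03 and 1.93 in empty vector, 2.03 and 2.43 in TET1-CDwt, 2.55 and 1.93 in MBD-TET1-CDwt, and 2.18 and 2.01 in MBD-TET1-CDmut. The pair of MBD-TET1-CDwt clones enclosed those of every other group, with #3 the highest array and #10 the lowest. The difference of MBD-TET1-CDwt was 0.25 from empty vector, 0.14 from MBD-TET1-CDmut and 0.01 from TET1-CDwt, each below the pooled SD of the clones (0.32, 0.32 and 0.37). The other BCAR1 probe, NM_014567, was dim on all 8 arrays, at -8.17 to -5.91. The 2 BCAR1 probes thus disagreed on detection.

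NEDD9, the member tied to the cell cycle, was not detected. Neither of its probes was well above background on any array, with intensities of 1.51 to 5.37 for NM_182966 and 1.60 to 2.91 for NM_006403. NM_182966 gave -6.03 in MBD-TET1-CDwt #3 and -7.65 in #10, against -7.87 and -8.11 in empty vector. MBD-TET1-CDmut, at -6.82 and -7.28, lay between the MBD-TET1-CDwt clones, and TET1-CDwt at -8.10 and -6.51 overlapped empty vector. Signals this dim bound the level from above only, and no fold is given.

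CASS4 was detected at a low signal by 1 of its 2 probes. NM_001164115 was well above background on all 8 arrays, at -3.84 and -3.06 in empty vector, -3.88 and -3.83 in TET1-CDwt, -3.34 and -3.74 in MBD-TET1-CDwt, and -3.80 and -3.77 in MBD-TET1-CDmut. Empty vector #2 was the highest array, MBD-TET1-CDwt #3 came next, and the lowest was TET1-CDwt #2. MBD-TET1-CDwt differed from empty vector by -0.09 with overlapping clones. Its clones lay above those of MBD-TET1-CDmut by only 0.02 at the closest, with a mean difference of 0.24. NM_020356 was dim on all 8 arrays, at -7.51 to -5.59. No promoter window is printed for CASS4.

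**Figure D2:**
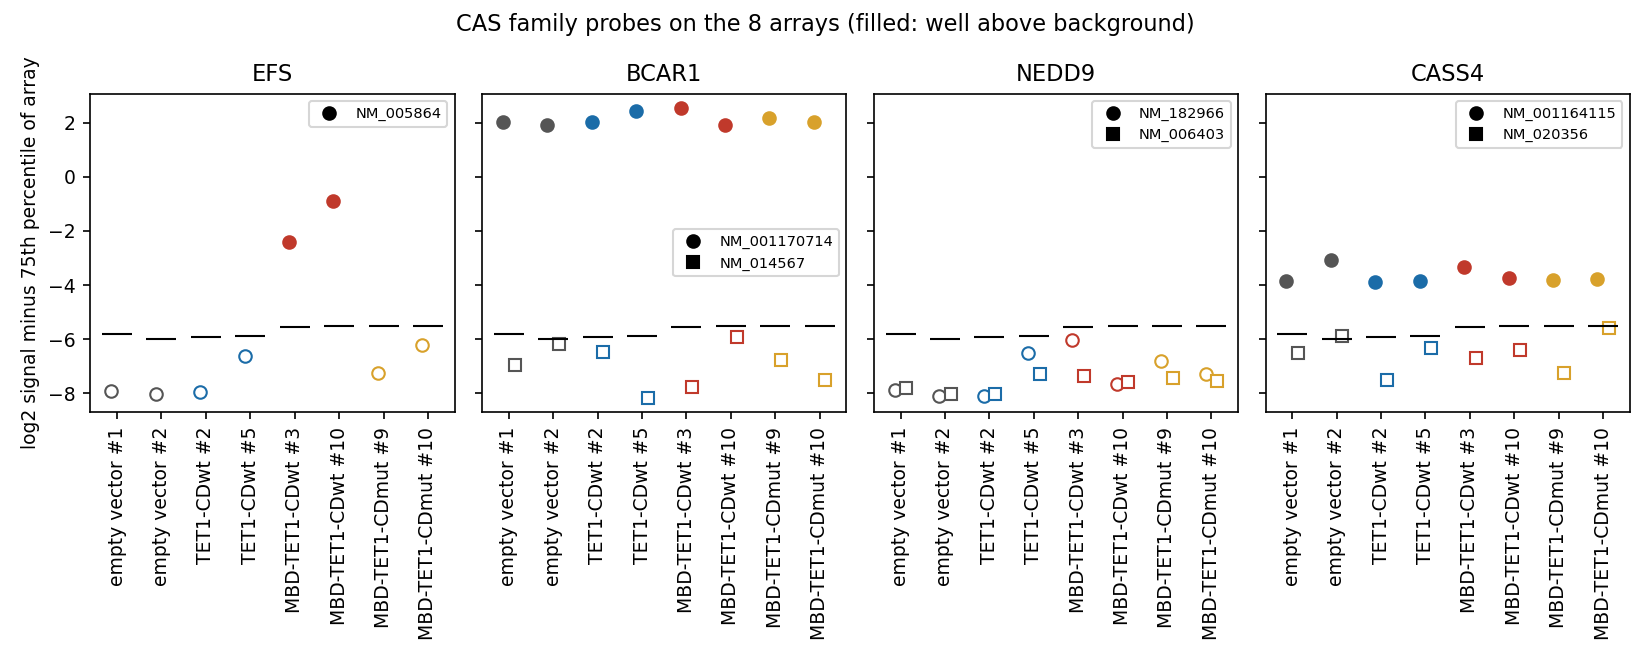
Log2 signal relative to the array's 75th percentile (y axis) for the 7 probes of EFS, BCAR1, NEDD9 and CASS4 on each of the 8 arrays (x axis, colored by construct), with filled symbols for signals well above background, open symbols for the others, and a bar at the lowest signal well above background on the array. EFS is filled only in MBD-TET1-CDwt #3 and #10, at -2.41 and -0.91, whereas BCAR1 stays between 1.93 and 2.55 in all lines with 1 of its probes. Levels of different probes cannot be set against each other.

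Thus 3 of the 7 member probes passed the filter on dim probes, and EFS passed it through MBD-TET1-CDwt alone. Across the 8 arrays the Pearson correlation with EFS was between 0.03 and 0.47 for the 6 probes of the other members, with the arrays, slides and constructs shared between them. The highest values, 0.40 and 0.47, came from the NEDD9 probes, which were dim on all 8 arrays, and are not read as a shared pattern. The detected probes of BCAR1 and CASS4 gave 0.23 and 0.10.

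The partners of the CAS proteins were examined in lists of 57 genes, 54 of which had a probe among those tested. limma was fitted to all 8 arrays over 22530 probes with Benjamini-Hochberg adjustment. No probe out of 69 passed an adjusted p of 0.05 in any of the 5 comparisons. The share of all probes that passed was 0.115% in MBD-TET1-CDwt against empty vector, 0.102% against MBD-TET1-CDmut and 0.115% against TET1-CDwt, and against empty vector it was 0.0% for both TET1-CDwt and MBD-TET1-CDmut, against which the count of 0 is read. At an unadjusted p under 0.05, 5 of the 69 probes (7.25%) differed between MBD-TET1-CDwt and empty vector, close to the 6.60% of all probes. Against MBD-TET1-CDmut 6 did (8.70%, beside 6.84% of all probes), and against TET1-CDwt 2 did (2.90%, beside 4.74%). Compared with empty vector, 1 differed for TET1-CDwt (1.45%, beside 2.503%) and 2 for MBD-TET1-CDmut (2.90%, beside 2.68%). The comparisons share control arrays. The median log2 difference of the 69 probes from empty vector in MBD-TET1-CDwt was -0.01, beside -0.02 over all probes.

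The kinases that phosphorylate CAS proteins had 11 tested probes for 8 genes, with differences between MBD-TET1-CDwt and empty vector of -0.53 to 0.43. FYN, the Src-family kinase after which EFS is named, gave 1.96 and 2.18 in empty vector, 1.87 and 2.40 in TET1-CDwt, 2.05 and 1.67 in MBD-TET1-CDwt, and 1.95 and 2.03 in MBD-TET1-CDmut. Its difference from empty vector was -0.21 (SE 0.24, limma adjusted p = 0.921), and MBD-TET1-CDwt #10 was the lowest array. LYN, of the same kinase family, differed by -0.09 and ABL1, which also phosphorylates adaptors, by -0.14. LCK and FGR, further Src-family kinases, did not pass the filter on dim probes. Of the phosphatases, the leading probes of PTPN1 and PTPRA differed by 0.12 and -0.35, and that of PTPN11 averaged 2.29 in both groups. The other PTPN11 probe, well above background on all 8 arrays, differed from empty vector by -0.31 (limma adjusted p = 0.871). From MBD-TET1-CDmut it differed by -0.72 (limma adjusted p = 0.554), and neither difference passed the test.

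Adaptors recruited to the phosphorylated substrate domain had 9 probes for 7 genes and differences of -0.22 to 0.55. The leading probes of NCK1 and NCK2, which link phosphotyrosine to the actin cytoskeleton, differed by -0.14 and 0.15, and INPPL1, a lipid phosphatase with an SH2 domain, by 0.06. Of the exchange factors and small GTPases, the GTPases RHOA, CDC42 and RAP1B differed by -0.01, -0.05 and 0.02. The lowest adjusted p of all lists belonged to 1 probe of RAPGEF1, an exchange factor for RAP1 that binds CRK, named here after its values were seen. Its limma adjusted p was 0.483 against empty vector. This probe was well above background on the 4 arrays of empty vector and TET1-CDwt and on none of the MBD fusions. It was close to the floor at -5.41 and -5.80 in empty vector and dim at -6.98 and -7.80 in MBD-TET1-CDwt. MBD-TET1-CDmut gave -5.77 in #9 and -6.91 in #10. The value of #9 was above those of empty vector #2 and TET1-CDwt #2 (-5.87), which counted as well above background. The floor was higher on the arrays of the MBD fusions, so the split is not read as a loss in them and no size is given. The other RAPGEF1 probe, well above background on all 8 arrays, differed by -0.55 (limma adjusted p = 0.745).

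The NSP proteins bind the C-terminal domain of CAS proteins through a domain that resembles an exchange factor. By clone, the log2 values of SH2D3C, one of them, were 0.11 and 1.26 in empty vector, -0.45 and 0.89 in TET1-CDwt, -1.73 and -1.15 in MBD-TET1-CDwt, and 0.76 and -0.09 in MBD-TET1-CDmut. Both MBD-TET1-CDwt clones lay below each of the other 6 arrays, all of them well above background. The difference was -2.12 from empty vector (SE 0.57, limma adjusted p = 0.545) and -1.77 from MBD-TET1-CDmut (SE 0.57, limma adjusted p = 0.643), and neither passed the test. The other NSP genes, BCAR3 and SH2D3A, differed from empty vector by 0.34 and 0.04.

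Focal adhesion partners, the proteins beside which BCAR1 acts, had 17 probes for 15 genes and differences from empty vector of -0.42 to 0.39. The adhesion scaffold PXN (paxillin) differed by 0.13, VCL (vinculin), which links adhesions to actin, by 0.10, and TRIP6, a LIM-domain protein, by -0.21. TRIP6 gave 3.03 in MBD-TET1-CDwt #3 and 4.27 in #10, against 3.75 to 4.19 elsewhere, so that the sister clones lay on opposite sides of the other arrays. Among the NEDD9 partners of the cell cycle and cilium, AURKA, a mitotic kinase, differed by 0.37 (SE 0.30, limma adjusted p = 0.895), HDAC6, a tubulin deacetylase, by -0.14 and SMAD3, a transducer of TGF-beta signals, by 0.09.

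**Figure D3:**
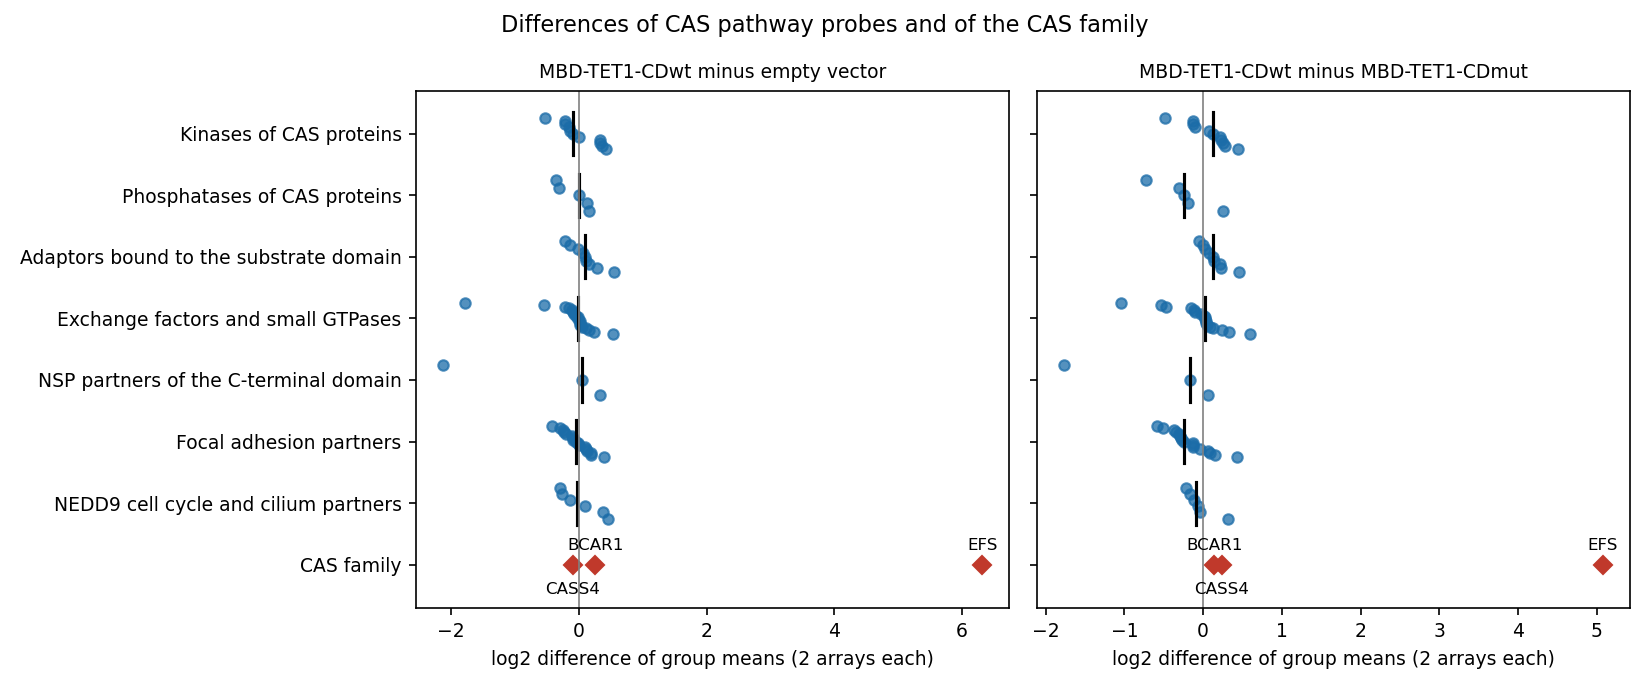
Log2 difference of group means (x axis, 2 arrays in each group) for the 69 tested probes of the 7 partner lists (blue points, spread vertically for legibility, with a black line at the median of the list) and for the 3 CAS family probes that passed the filter (red diamonds), against empty vector on the left and against MBD-TET1-CDmut on the right. EFS lies at 6.31 and 5.07, and the lowest partner probe, of SH2D3C, lies at -2.12 and -1.77. EFS and the leftmost exchange-factor probe, of RAPGEF1, are set against or taken from dim signals, so that their positions are not exact sizes.

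The genes with the pattern most like EFS were sought among 14410 named genes by Pearson correlation over the 8 arrays. They were SOX17 (r = 0.983), an endoderm transcription factor, MAGEA8 (r = 0.980), a cancer-testis antigen, MEIOC (r = 0.979), a meiotic regulator, CRABP1 (r = 0.979), which binds retinoic acid, TDRD9 (r = 0.978), a helicase of the germline piRNA pathway, and DMRTB1 (r = 0.977), a testis transcription factor. Each was detected on both arrays of MBD-TET1-CDwt and on none of the other 6, and each was brighter in #10 than in #3. A choice by correlation with EFS favors this pattern, so it describes the choice and is no separate result. The next gene had r = 0.976, and 29 genes had r of at least 0.95, so the choice of 6 marks no step.

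SOX17 gave -0.47 in MBD-TET1-CDwt #3 and 1.13 in #10, a mean at least 75.7-fold above empty vector. DMRTB1 gave -2.96 and -1.43 (at least 13.2-fold), MAGEA8 gave -3.59 and -2.83 (at least 6.51-fold), and CRABP1 gave -4.20 and -3.10 (at least 4.82-fold). MEIOC gave -4.47 and -2.98 and TDRD9 -4.84 and -3.28, at least 4.55-fold and at least 3.62-fold above empty vector. Each of these correlations sets 2 arrays with signal against 6 without. By Spearman correlation 1 of the 6 remained, without MBD-TET1-CDwt #10 0 remained, and without #3 2 remained. SOX17 has no promoter window here. The RefSeq windows of 300 bases of the other genes held 8 CpG in DMRTB1, 12 in MAGEA8, 25 in CRABP1, 34 in MEIOC and 41 in TDRD9, so that the 33 CpG of EFS lay inside the range of these 5.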

How the data were processed

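Cy-3 signals of 8 HEK293T lines were analysed. The deposited intensity values are the authors' processed signals from Agilent Feature Extraction (version 9.5.1 per the submitters' notes, 10.7.3.1 per the file headers), background-subtracted by that software and unscaled. The series table repeated them in all 44495 rows. The study's methods name a 5-fold threshold and no normalization or test.

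Controls were dropped, as were flagged outlier spots (213 to 269 per array). The log2 signal minus the log2 of the 75th percentile of the array's probes was averaged over spots, and a probe counted as well above background if the software so flagged over 50% of its spots. No spot was saturated. Through a RefSeq gene table (GRCh38.p14, for names), 25422 of 34127 probes (74.5%) were named. Where the dimmer group was nowhere well above background, folds are lower bounds, computed with each dim signal raised to the array's lowest signal of that flag, or kept if higher.

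limma 3.58.1 (R 4.3.3) was fitted with 4 group means over the 22530 probes that both arrays of some group showed well above background. This left 4 residual degrees of freedom. The fit was also run on simulated data with independent probes and no slide effect, which cannot show how it behaves where these are present. The p-values of limma weigh a difference between groups against the spread between arrays of a group. Each array is 1 clone, so the spread of clones and that of arrays cannot be told apart. The 2 arrays per group limit the precision. Each group lay on 1 slide, so no slide term could be fitted. Tables were made in Python 3.11.15 with pandas 2.3.3 and numpy 2.4.6, and plots with matplotlib 3.10.9.

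The members and all gene lists were chosen with earlier results of these data known. The genes named are the members, partner genes called by limma, up to 3 genes of each partner list with the highest mean signal, the 6 genes most like EFS, TET1, MBD2 and the markers. RAPGEF1 was added after its values were seen.

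Alternatives were normexp, quantile and median scaling, other treatment of dim probes, other limma settings, probe choice and leaving out clones. Normexp used the median foreground, since the files used hold no mean, and flagged local backgrounds were replaced by the array's median background. RT-PCR, bisulfite sequencing and LNCaP experiments were not analysed here, and some genes are left out of the text.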

Additional observations from a re-analysis of the deposited data

How the results depend on the processing

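No paired analysis was possible because each clone was a separately picked colony, and a clone number that occurs in different constructs links no clones. With normexp EFS differed from empty vector by 1.73 (MBD-TET1-CDwt), by -0.14 (TET1-CDwt) and by 0.24 (MBD-TET1-CDmut), and MBD-TET1-CDwt differed from MBD-TET1-CDmut by 1.49 and from TET1-CDwt by 1.86. With dim signals at the floor these were 4.26, 0.0011, 0.38, 3.87 and 4.25. The values 0.0011 and 0.38 are differences between the floors of the arrays and hold no EFS signal. Quantile and median scaling moved none of them by more than the spread between clones. With normexp the NEDD9 difference from empty vector was 0.20 and the CASS4 difference from MBD-TET1-CDmut was 0.035.

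The count of partner probes called by limma was 0 under every alternative run in the 5 comparisons. The count of all probes called moved, from 26 in MBD-TET1-CDwt against empty vector to 2 with normexp, 10 without the filter, 15 with an intensity trend and 2 with only the groups compared, and leaving out one clone gave 8 (without empty vector #2) to 97 (without MBD-TET1-CDwt #3). Against MBD-TET1-CDmut it moved from 23 to 2, 11, 10 and 0 in the same order, and to 3 (without either MBD-TET1-CDmut clone) to 143 (without MBD-TET1-CDwt #10) by leaving out one clone. Against TET1-CDwt it moved from 26 to 1, 15, 9 and 0, and to 10 (without TET1-CDwt #5) to 76 (without MBD-TET1-CDwt #3). Of the comparisons with 0 calls, TET1-CDwt against empty vector (564 probes at an unadjusted p under 0.05) gave 0 to 2 and MBD-TET1-CDmut against empty vector (603 probes) gave 0 to 1 by leaving out one clone, and the latter gave 1 with only the groups compared. In each case the cause was not tested.

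The number of probes that exceeded empty vector by 5-fold or more in MBD-TET1-CDwt moved from 67 to 25 where every clone had to agree, and gave 45 (without MBD-TET1-CDwt #10) to 179 (without #3) by leaving out one clone. Against MBD-TET1-CDmut it moved from 51 to 88 with no floor, to 21 where every clone had to agree, and gave 37 to 144 by omitting the same clones. Of the 6 genes most like EFS, 1 remained by Spearman correlation (11 genes tied at or above the last value), 0 without MBD-TET1-CDwt #10 and 2 without #3. Signals below the floor of their array, which ran from -6.01 to -5.51 on the log2 scale, have no order. This limits EFS outside MBD-TET1-CDwt, NEDD9 and the dim probes of BCAR1 and CASS4.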
